A study of Mus musculus with 19 samples.

Results

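Cholesterol in the brain is made locally, because the lipoproteins of the blood do not carry it across the blood-brain barrier. The genes described here were Hmgcs1, Sqle, Fdft1, Fdps, Lss and Dhcr7, which encode enzymes of sterol synthesis, and Insig1, which encodes a regulator of that pathway. They were chosen by name, and every probe whose platform gene symbol was one of the 7 names was taken. Of the 7 genes, 6 had a probe, with 10 probes among the 25697 of the array, and Fdft1 (squalene synthase) was not analysed here. None of the 7 encodes a protein that takes up cholesterol, so the set is called the cholesterol synthesis genes. Of the 10 probes, 9 passed the filter on dim probes and were detected on all 19 arrays. The tenth, Insig1 probe ILMN_2620965, was detected on 0 arrays, and its log2 intensity of 4.39 to 4.59 is not interpreted.

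Gene expression was measured with 1 RNA sample of prefrontal cortex on each of 19 Illumina bead arrays, from female mice killed at 20 months of age and labelled strain C57BL/6. The 3xTgAD line carries mutant human genes of familial dementia (APPswe, PS1M146V and tauP301L), and Polb encodes DNA polymerase beta, an enzyme of base excision repair. The 4 genotypes were 3xTgAD mice heterozygous for Polb (3xTgAD/Polb+/-, n = 4), 3xTgAD mice with intact Polb (n = 6), mice heterozygous for Polb without the 3xTgAD alleles (Polb+/-, n = 4) and wild type (n = 5). No treatment is named, and the promoter that drives each transgene is not given in the labels. Replicate numbers name separate samples, and the labels do not say outright that each is a separate mouse, so p-values measure the spread between these arrays.

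The pathway begins with acetyl-CoA. HMG-CoA synthase (Hmgcs1) makes the substrate of HMG-CoA reductase, farnesyl diphosphate synthase (Fdps) builds the farnesyl unit, squalene epoxidase (Sqle) and lanosterol synthase (Lss) form the first sterol, and 7-dehydrocholesterol reductase (Dhcr7) catalyses a last step to cholesterol. When membrane sterol is low, the transcription factor SREBP2 is cut free after SCAP-guided transport and switches these genes on together. INSIG1 holds SCAP in the endoplasmic reticulum when sterol is high, and Insig1 is itself a target of SREBP, so it is both a brake and a readout. In adult brain much of the sterol lies in myelin, and both oligodendrocytes and astrocytes make it.

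The promoter windows below show the letters around the start site of 3 of the genes. RefSeq windows of 300 bases (build GRCm38.p6, all on the plus strand) were found for 4 of the 7 genes, namely Hmgcs1, Insig1, Lss and Dhcr7. The capitals mark matches to the sterol regulatory element, searched as TCACNCCAC, and to CCAAT, the letters bound by the SREBP partner NF-Y, each on both strands.
Hmgcs1, chr13:119690101-119690400: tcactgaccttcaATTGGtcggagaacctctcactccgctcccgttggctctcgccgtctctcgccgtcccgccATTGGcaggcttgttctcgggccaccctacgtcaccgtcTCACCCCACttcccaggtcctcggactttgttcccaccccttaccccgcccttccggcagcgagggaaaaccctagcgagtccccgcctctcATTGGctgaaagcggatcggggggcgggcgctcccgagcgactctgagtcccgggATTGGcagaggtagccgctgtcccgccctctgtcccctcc
Insig1, chr5:28071162-28071461: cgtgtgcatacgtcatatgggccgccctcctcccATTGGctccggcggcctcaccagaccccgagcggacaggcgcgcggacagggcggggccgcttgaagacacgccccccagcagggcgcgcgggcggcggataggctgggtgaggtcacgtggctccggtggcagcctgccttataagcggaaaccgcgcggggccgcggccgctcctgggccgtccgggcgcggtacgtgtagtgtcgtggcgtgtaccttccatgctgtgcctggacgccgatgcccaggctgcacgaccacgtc
Lss, chr10:76531355-76531654: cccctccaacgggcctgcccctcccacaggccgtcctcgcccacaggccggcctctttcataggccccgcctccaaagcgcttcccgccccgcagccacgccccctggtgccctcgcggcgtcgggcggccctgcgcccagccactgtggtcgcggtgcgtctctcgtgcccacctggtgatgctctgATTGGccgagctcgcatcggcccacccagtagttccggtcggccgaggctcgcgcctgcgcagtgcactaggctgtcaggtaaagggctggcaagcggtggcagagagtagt
In the Hmgcs1 window, 1 sterol regulatory element began at position -137 from the start site, and 4 CCAAT matches on the minus strand began at -237, -176, -45 and 11. The Insig1 and Lss windows held 0 matches to the element and 1 CCAAT match each. The 3 windows of Dhcr7 held 0 matches to the element, and 1 of them held 2 CCAAT matches. Among 32817 such mouse windows, 1.24% held a match to the element and 37.4% held CCAAT, and no marked matches overlapped. A match describes letters and not a bound site.

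Before the comparisons, 3 features of the arrays bear on what follows. The source labels write the age as "20- month" on 11 arrays and "20 month" on 8, with every genotype in both (3xTgAD/Polb+/- 2 and 2, 3xTgAD 3 and 3, Polb+/- 3 and 1, wild type 3 and 2), and what the spelling stands for is not given. With genotype in the fit, 31.9% of the 14942 probes tested differed between the spellings. The arrays labelled 3xTgAD replicates 2 and 5 share a code in the column headings, so n = 6 counts arrays. Polb, the targeted gene, had a log2 intensity of 7.21, 7.09, 6.53 and 7.16 on the 3xTgAD/Polb+/- arrays, 6.63 to 7.79 (median 7.54) on the 3xTgAD arrays, 7.26, 7.21, 6.95 and 6.98 on the Polb+/- arrays, and 7.97, 7.60, 7.74, 7.82 and 7.55 on the wild-type arrays. Both heterozygous genotypes lay wholly below wild type, with log2 differences of -0.74 ± 0.20 in 3xTgAD/Polb+/- and -0.63 ± 0.20 in Polb+/- (SE; adjusted p = 0.181 and 1 by limma). The arrays labelled 3xTgAD replicates 4 and 6, at 6.89 and 6.63, lay below every Polb+/- array although their label gives intact Polb, so values of arrays labelled 3xTgAD are also given without them. Whether this probe lies in the deleted part of Polb is not given in the sources used here.

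Markers of other cell types differed between the arrays. The summed level of the striatal neuron markers (mean log2 intensity of 9 genes, of 12 listed) was 8.43 to 9.21 on 3xTgAD/Polb+/- arrays, 8.57 to 10.59 on 3xTgAD arrays, 10.23 to 10.93 on Polb+/- arrays and 8.26 to 10.53 on wild-type arrays. Within 3xTgAD, replicates 4 and 6 were at 10.59 and 10.19 and the other arrays at 8.57 to 8.69. Values without replicates 4 and 6 therefore leave out the 3xTgAD arrays of high striatal level as well as those of low Polb. Both were also "20- month" arrays, which leaves replicate 5 as the only "20- month" 3xTgAD array in those values. The oligodendrocyte and myelin markers (9 of 12) were at 11.37 and 11.15 on the "20- month" 3xTgAD/Polb+/- arrays and at 10.41 and 10.92 on the "20 month" ones, beside 11.06 to 11.34 on 3xTgAD, 10.94 to 11.29 on Polb+/- and 10.71 to 11.39 on wild-type arrays. Markers of cortical projection neurons (7 of 9) were at 10.18 to 10.90 on all 19 arrays of this cortical tissue. Choroid plexus markers (5 of 8) were at 6.07 to 6.96 on Polb+/- arrays and 4.82 to 6.25 on the others. Of these, Kl and Calml4 were detected on only 4 arrays each and Aqp1 on 8, so much of this level lies near the floor. The striatal markers Adora2a and Penk were not analysed here. In bulk tissue, fewer cells of a type and less RNA per cell cannot be told apart.

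**Figure D1:**
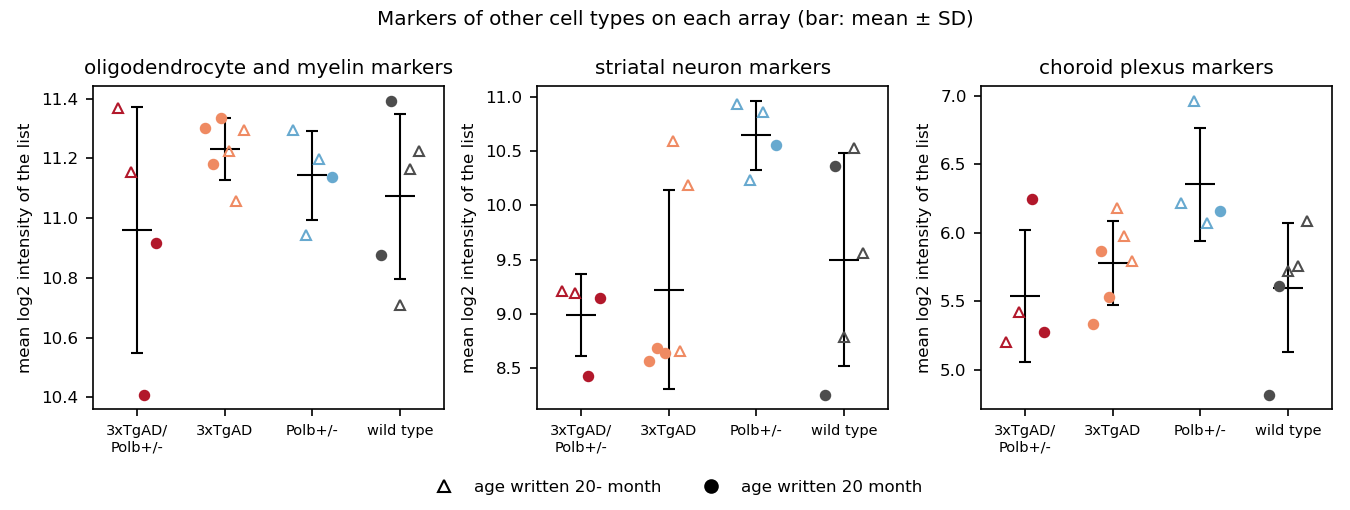
Mean log2 intensity of 3 lists of cell type markers on each array, by genotype, with triangles for arrays whose age is written 20- month and circles for 20 month; bars give the mean and SD. The lowest oligodendrocyte level, 10.41, and the highest 3xTgAD/Polb+/- level, 11.37, both belong to 3xTgAD/Polb+/- arrays, and the Polb+/- arrays sit at 10.23 or above for the striatal markers.

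Across all 19 arrays, no cholesterol synthesis gene differed between genotypes past the threshold, and Hmgcs1 and Sqle spread most within the 3xTgAD/Polb+/- group. At an adjusted p under 0.05 by limma, 0 of 9 probes were called in each of the 5 comparisons of genotypes and in the test of their interaction. The background was almost as bare: of 14942 probes, 1 (0.00669%) was called for 3xTgAD/Polb+/- against wild type, 2 (0.0134%) for 3xTgAD/Polb+/- against Polb+/-, and 0 (0%) in the other comparisons. At an unadjusted p under 0.05, 1 of 9 probes stood beside 12.7% of all probes for 3xTgAD/Polb+/- against wild type, 2 of 9 beside 5.81% for 3xTgAD against wild type and 0 of 9 beside 3.21% for Polb+/- against wild type. For 3xTgAD/Polb+/- the counts were 2 of 9 beside 8.87% against 3xTgAD and 2 of 9 beside 11.6% against Polb+/-, and for the interaction 0 of 9 beside 3.13%. With 9 probes, none of these shares is read as a feature of the genes. Groups without overlap were found for 0 of 9 probes against wild type, beside 2.72% of all probes for 3xTgAD/Polb+/-, 0.843% for 3xTgAD and 1.57% for Polb+/-. With the spelling as a block, 0 of 9 were called in every comparison, beside 0.328%, 0.0669% and 0% against wild type in the same order, 0% for 3xTgAD/Polb+/- against 3xTgAD, 0.221% against Polb+/- and 0.00669% for the interaction.

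The first enzyme, Hmgcs1 (probe ILMN_2654952), had a log2 intensity of 14.13, 14.34, 13.32 and 13.68 in 3xTgAD/Polb+/- replicates 1 to 4, of 13.79 to 14.03 (median 13.88) in 3xTgAD, of 13.76, 13.92, 13.73 and 13.54 in Polb+/-, and of 13.77, 13.73, 13.63, 13.71 and 13.82 in wild type. The 3xTgAD/Polb+/- group held both the highest and the lowest arrays of all 19, with an SD of 0.46 beside 0.09 in 3xTgAD, 0.15 in Polb+/- and 0.07 in wild type. By mean level the order was 3xTgAD (13.88), 3xTgAD/Polb+/- (13.87), Polb+/- (13.74) and wild type (13.73), and the ranges of all neighbours overlapped. The difference of 3xTgAD/Polb+/- from wild type was 0.14 on the log2 scale, with a 95% confidence interval of -0.18 to 0.45, a mean fold of 1.10. The probe was bright (9737 to 19300.3 before normalization, with a highest value of 36313.2 in the table), and whether its response is compressed there was not tested.

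**Figure D2:**
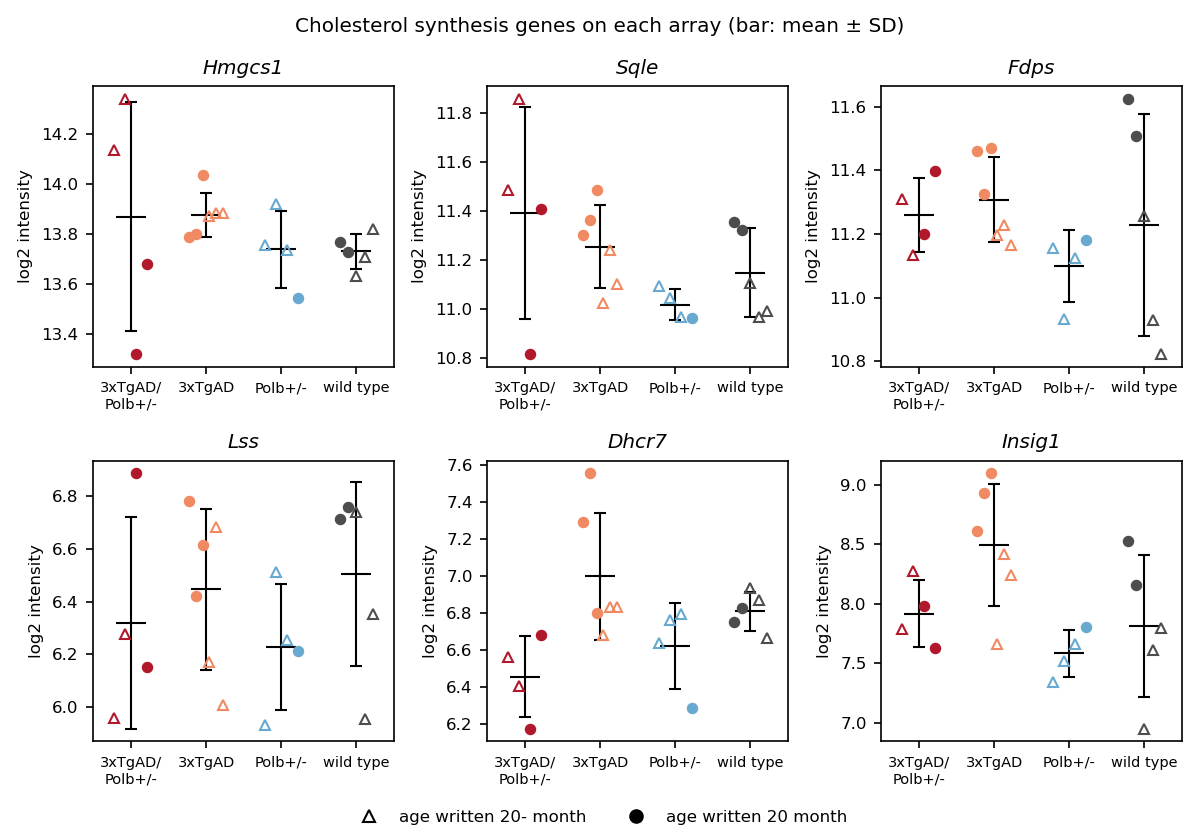
Normalized log2 intensity of the probe that stands for each of the 6 genes on every array, by genotype; bars give the mean and SD, and the 2 spellings of the age label have different symbols. In Hmgcs1 and Sqle the 3xTgAD/Polb+/- arrays spread widest, with SDs of 0.46 and 0.43.

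Squalene epoxidase, Sqle, was read by a pair of probes. Probe ILMN_2600348 was at 9.77, 10.39, 8.82 and 8.93 in 3xTgAD/Polb+/-, at 9.27 to 9.93 (median 9.52) in 3xTgAD, at 9.29, 9.14, 9.47 and 8.65 in Polb+/-, and at 9.58, 9.31, 8.89, 9.17 and 9.03 in wild type. Replicates 1 and 2 of 3xTgAD/Polb+/- were high and replicates 3 and 4 low, and all groups overlapped. Probe ILMN_2737163, the brighter one, was at 11.48, 11.86, 10.82 and 11.41 in 3xTgAD/Polb+/-, at 11.02 to 11.49 (median 11.27) in 3xTgAD, at 11.09, 11.04, 10.97 and 10.96 in Polb+/-, and at 11.35, 11.32, 11.10, 10.97 and 10.99 in wild type. By mean the order was 3xTgAD/Polb+/- (11.39), 3xTgAD (11.25), wild type (11.15) and Polb+/- (11.02), and neighbours overlapped. For this probe 3xTgAD/Polb+/- was above Polb+/- by 0.37 ± 0.17 (SE, with adjusted p = 0.389 by limma). With each array left out in turn the value was lowest, 0.22, without 3xTgAD/Polb+/- replicate 2. It was highest, 0.57 (adjusted p = 0.0457 by limma), without 3xTgAD/Polb+/- replicate 3. In that last fit 260 of all probes were called, beside 2 with all 19 arrays. Against wild type the intervals ran from -0.25 to 0.81 and from -0.09 to 0.57 for the 2 probes.

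Fdps, the farnesyl diphosphate synthase gene (probe ILMN_1225730), varied most in wild type. Its log2 intensity was 11.13 to 11.40 in 3xTgAD/Polb+/-, 11.16 to 11.47 in 3xTgAD, 10.93 to 11.18 in Polb+/- and 10.82 to 11.62 in wild type. Within wild type the "20 month" arrays were at 11.62 and 11.51 and the "20- month" arrays at 11.26, 10.93 and 10.82, without overlap. With genotype in the fit, Fdps was higher on "20 month" than on "20- month" arrays by 0.26 ± 0.08 (adjusted p = 0.0183 by limma). In the 5 comparisons of genotypes its log2 differences were -0.13 to 0.16.

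Lss, the lanosterol synthase gene (probe ILMN_2614161), was at 5.96 to 6.89 in 3xTgAD/Polb+/-, 6.01 to 6.78 in 3xTgAD, 5.93 to 6.51 in Polb+/- and 5.96 to 6.76 in wild type. All 4 ranges overlapped, and the differences between genotypes were -0.28 to 0.09. The probe was dim, at 94.5 to 211.4 before normalization. For 3xTgAD/Polb+/- against wild type the difference was -0.19, with an interval of -0.62 to 0.24.

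Dhcr7, which encodes the enzyme that reduces 7-dehydrocholesterol to cholesterol, gave the smallest p of the set in the comparisons of genotypes over all 19 arrays. Probe ILMN_2660471 was at 6.56, 6.40, 6.17 and 6.68 in 3xTgAD/Polb+/-, at 6.68 to 7.55 (median 6.83) in 3xTgAD, at 6.64, 6.76, 6.79 and 6.29 in Polb+/-, and at 6.75, 6.83, 6.94, 6.87 and 6.66 in wild type. After normalization every 3xTgAD/Polb+/- array lay below every 3xTgAD array, although the nearest arrays of both were at 6.68. The other pairs of groups overlapped. The probe was dim, at 103.3 to 236.7 before normalization, where the array medians were 67.7 to 109.1. Before normalization 3xTgAD replicate 3, at 103.3, lay below every 3xTgAD/Polb+/- array (lowest 104.2). Groups that did not overlap were found for 1 of 9 probes in this comparison, beside 0.937% of all probes. For 3xTgAD/Polb+/- minus 3xTgAD the log2 difference was -0.54 ± 0.16 (SE), 0.686 times the 3xTgAD level, with an interval of -0.87 to -0.21 and an adjusted p of 0.415 by limma. It was -0.66 (adjusted p = 0.201) without 3xTgAD replicates 4 and 6, -0.30 within the "20- month" arrays and -0.79 within the "20 month" arrays (adjusted p = 0.178 and 0.318). Against wild type the value in 3xTgAD/Polb+/- was -0.35 ± 0.16 (adjusted p = 0.377 by limma).

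Insig1 was read by 3 detected probes that did not follow each other equally. Probe ILMN_1245272, the brightest, was at 7.79, 8.27, 7.98 and 7.62 in 3xTgAD/Polb+/-, at 7.66 to 9.10 (median 8.52) in 3xTgAD, at 7.35, 7.52, 7.67 and 7.81 in Polb+/-, and at 8.53, 8.16, 6.95, 7.61 and 7.80 in wild type. The groups overlapped, and the 3 highest arrays were the "20 month" 3xTgAD arrays. By mean the order was 3xTgAD (8.49), 3xTgAD/Polb+/- (7.92), wild type (7.81) and Polb+/- (7.59), with SDs of 0.20 to 0.60.

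Arrays labelled 3xTgAD exceeded wild type by 0.68 ± 0.25 with this probe (interval 0.16 to 1.20, 1.61-fold, adjusted p = 0.727 by limma). Probe ILMN_2606693 gave 0.50 ± 0.21 (adjusted p = 0.794) and probe ILMN_2895388 gave 0.19 ± 0.15 (adjusted p = 0.921). The first value was 0.95 (adjusted p = 0.190) without 3xTgAD replicates 4 and 6, 0.65 within the "20- month" arrays and 0.54 within the "20 month" arrays (adjusted p = 0.406 and 0.949). Of the 3 probes, ILMN_2895388 changed sign between the spellings, with 0.38 and -0.10. For 3xTgAD/Polb+/- against 3xTgAD the probes disagreed, at -0.58, -0.41 and 0.13 (adjusted p = 0.557, 0.579 and 0.808). Probe ILMN_2895388 was at 7.35, 7.52, 7.22 and 7.34 in 3xTgAD/Polb+/- and at 6.67, 7.15, 6.88 and 7.22 in Polb+/-, without overlap before rounding, a difference of 0.38 ± 0.17 (adjusted p = 0.409), beside 5.01% of all probes without overlap in this comparison. Probes ILMN_1245272 and ILMN_2606693 were also higher on "20 month" arrays with genotype in the fit, by 0.50 and 0.39 (adjusted p = 0.0239 and 0.0346 by limma). Leaving out 3xTgAD replicates 4 and 6, both "20- month", left mostly "20 month" arrays in that group, so the 0.95 also carries a change in spelling.

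**Figure D3:**
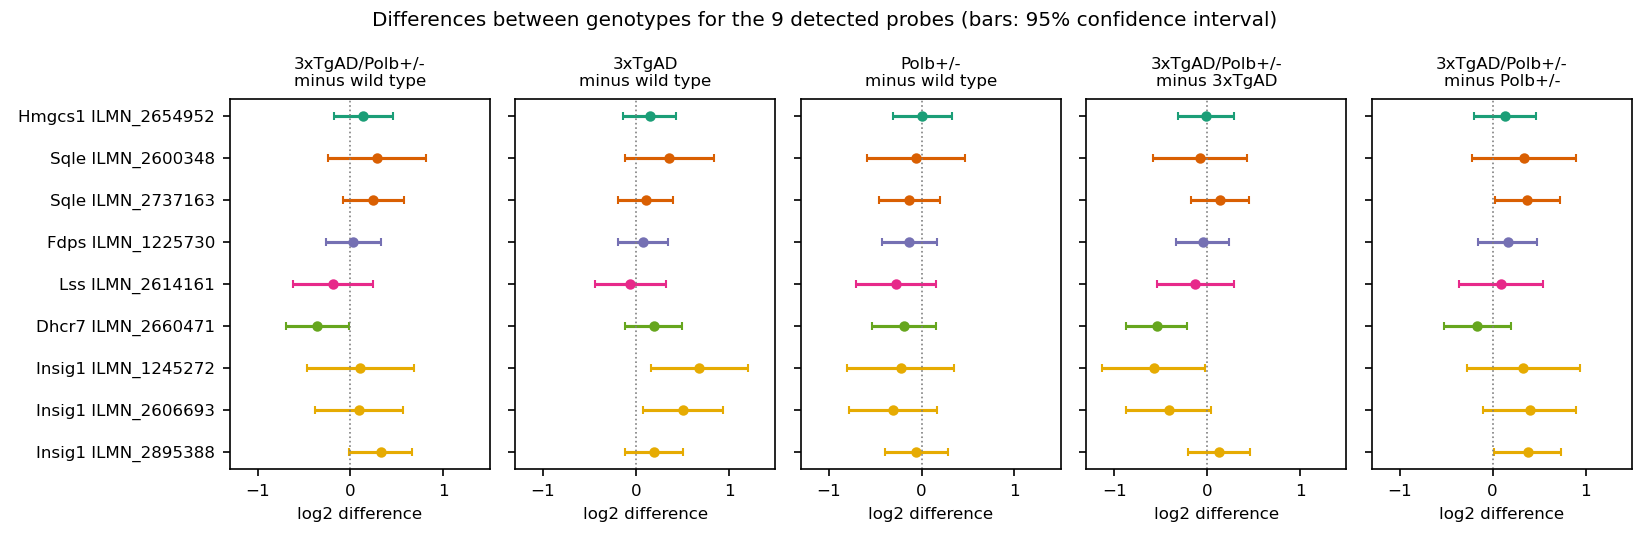
Log2 difference between genotypes for the 9 detected probes in 5 comparisons, with the 95% confidence interval of each from limma. None passes an adjusted p of 0.05, and the intervals farthest from 0 are those of Dhcr7 for 3xTgAD/Polb+/- minus 3xTgAD (-0.87 to -0.21) and of Insig1 probe ILMN_1245272 for 3xTgAD minus wild type (0.16 to 1.20).

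For the interaction of the 3xTgAD and Polb+/- genotypes, the differences were -0.35 to 0.27 over the 9 probes. The widest interval, for Insig1 probe ILMN_1245272, ran from -1.15 to 0.45 (adjusted p = 1 by limma). Over the 6 genes, the median log2 difference was 0.07 for 3xTgAD/Polb+/- against wild type, where the median of all probes was 0.02. It was 0.13 for 3xTgAD and -0.16 for Polb+/- against wild type.

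The differences of 3xTgAD/Polb+/- from wild type changed with the spelling of the age label, most for Sqle probe ILMN_2600348. On the "20- month" arrays, the log2 differences of Hmgcs1, Sqle and Insig1 between 3xTgAD/Polb+/- and wild type were above 0, and on the "20 month" arrays their differences were below 0. The test of this change was added after the arrays had been seen, and only 2 arrays of 3xTgAD/Polb+/- stood on each side. For Sqle probe ILMN_2600348 the difference from wild type was 1.05 on "20- month" arrays and -0.57 on "20 month" arrays, a change of -1.62 ± 0.28 (SE; adjusted p = 0.0200 by limma). Hmgcs1 gave 0.52 and -0.25, a change of -0.77 ± 0.20 (adjusted p = 0.0725), and Sqle probe ILMN_2737163 gave 0.65 and -0.23, a change of -0.88 ± 0.23 (adjusted p = 0.0813). For Hmgcs1 both "20- month" 3xTgAD/Polb+/- arrays lay above both "20 month" ones (means 14.24 and 13.50), while wild type was at 13.72 and 13.75. The 3 Insig1 probes changed by -1.12, -1.08 and -0.70 (adjusted p = 0.143, 0.0812 and 0.194) and Fdps by -0.49 (adjusted p = 0.216), and for these the wild-type arrays differed more between the spellings than the 3xTgAD/Polb+/- arrays. Insig1 probe ILMN_1245272 averaged 8.03 on "20- month" and 7.80 on "20 month" arrays of 3xTgAD/Polb+/-, which overlapped, against 7.45 and 8.34 in wild type. Fdps averaged 11.22 and 11.30 in 3xTgAD/Polb+/-, against 11.003 and 11.566 in wild type. Lss and Dhcr7 changed by 0.02 and -0.02.

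Of the 9 probes 1 was called for this change, beside 0.348% of all probes, and 7 had an unadjusted p under 0.05, beside 18.7%. Against 3xTgAD, 2 of 9 were called beside 2.82% of all probes (5 of 9 beside 21.3% unadjusted), namely Sqle probe ILMN_2600348 (change -1.44, adjusted p = 0.0281) and Hmgcs1 (-0.73, adjusted p = 0.0476). Against Polb+/-, 0 of 9 were called by limma, beside 0%, and 1 of 9 unadjusted, beside 11.9%. These comparisons share the 3xTgAD/Polb+/- arrays. The change was not called for any probe of the set in 3xTgAD against wild type (0 of 9, beside 0.0335%) or in Polb+/- against wild type (0 of 9, beside 0.120%), where an unadjusted p under 0.05 came for 0 of 9 beside 5.17% and for 1 of 9 beside 7.46% by limma.

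**Figure D4:**
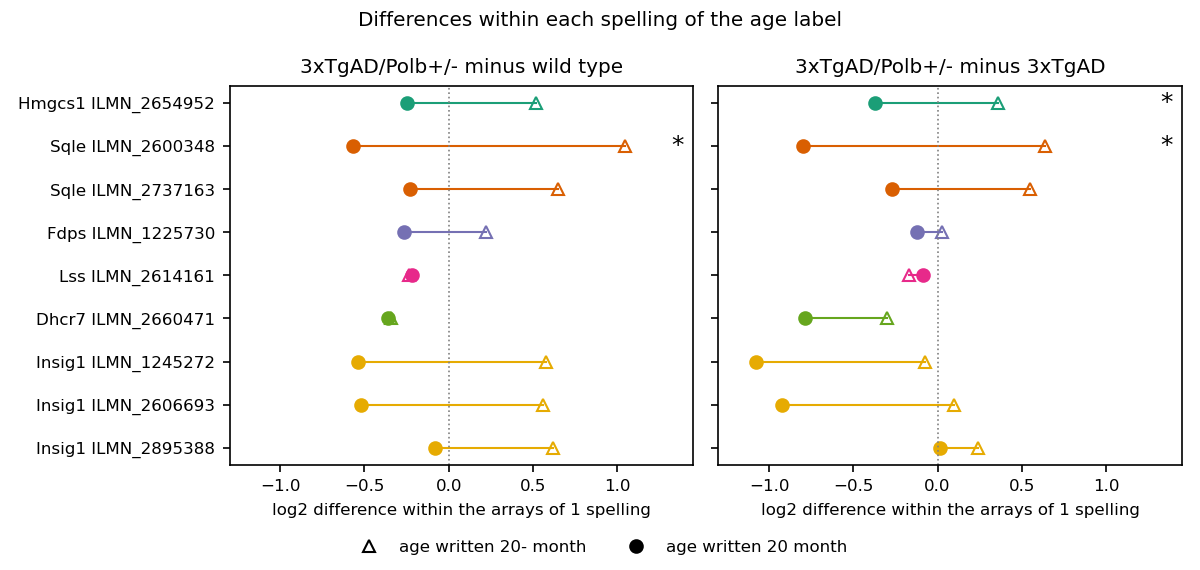
Log2 difference of 3xTgAD/Polb+/- from wild type (left) and from 3xTgAD (right) for the 9 probes, within arrays whose age is written 20- month (triangles) and 20 month (circles); a star marks a change past an adjusted p of 0.05. In the left panel the Hmgcs1, Sqle and Insig1 lines are long, up to the change of -1.62 for Sqle, and those of Lss and Dhcr7 are short. In the right panel Insig1 probe ILMN_2895388 (-0.22) changes less than Dhcr7 (-0.49).

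Fitted on the "20- month" arrays alone, 4 of 9 probes were called higher in 3xTgAD/Polb+/- than in wild type, beside 13.3% of all probes in either direction. They were Hmgcs1 (0.52, adjusted p = 0.0167), both Sqle probes (1.05 and 0.65, adjusted p = 0.00349 and 0.00947) and Insig1 probe ILMN_2895388 (0.62, adjusted p = 0.0230). Against 3xTgAD, 1 of 9 was called on these arrays, beside 5.03% (Sqle probe ILMN_2737163, 0.55, adjusted p = 0.0364), and against Polb+/- 5 of 9, beside 10.6% (Hmgcs1, both Sqle probes and Insig1 probes ILMN_2606693 and ILMN_2895388, 0.43 to 0.78). For 3xTgAD and Polb+/- against wild type 0 of 9 were called, beside 0.435% and 0%. On the "20 month" arrays alone, 0 of 9 were called by limma in any of the 5 comparisons, beside 0.0468% for 3xTgAD/Polb+/- and 0.0468% for 3xTgAD against wild type, 0.107% for Polb+/- against wild type, 0.0268% for 3xTgAD/Polb+/- against 3xTgAD and 0.087% against Polb+/-. The change of Sqle probe ILMN_2600348 against wild type was -1.31 (adjusted p = 0.0777) without 3xTgAD/Polb+/- replicate 2 and -1.48 (adjusted p = 0.0792) without wild type replicate 1. Against 3xTgAD, neither Sqle nor Hmgcs1 was called by limma without 3xTgAD/Polb+/- replicate 2 or 3, or without 3xTgAD replicate 3, 4 or 5. Without 3xTgAD replicates 4 and 6 together the Sqle change there was -1.41, with replicate 5 as the only "20- month" 3xTgAD array. With the oligodendrocyte marker mean as a covariate the change of Sqle against wild type was -1.60 (adjusted p = 0.104), nearly as large and no longer called, and with the striatal marker mean it was -1.62 (adjusted p = 0.0274). The oligodendrocyte markers, at 11.37 and 11.15 on the "20- month" 3xTgAD/Polb+/- arrays and 10.41 and 10.92 on the "20 month" ones, differed in the same direction. So did the astrocyte markers, at 10.94 and 10.91 against 10.55 and 10.65, and the endothelial markers, at 7.90 and 7.84 against 7.76 and 7.21. Markers of cortical projection neurons, at 10.33 and 10.23 against 10.50 and 10.78, differed the opposite way. The striatal markers were higher on the "20- month" arrays, at 9.21 and 9.19 against 8.43 and 9.15. The microglia markers (8.89 and 8.42 against 8.41 and 8.91) and choroid plexus markers (5.20 and 5.42 against 6.25 and 5.28) overlapped. The astrocyte mean was not tried as a covariate, and a cell type as the cause was not tested.

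The cholesterol synthesis genes did not all vary together from array to array. Only Hmgcs1 and Sqle passed over all 19 arrays (Pearson's r = 0.75, permutation p adjusted over the 15 pairs of genes = 0.0039). Without the 2 arrays farthest from the Hmgcs1 median r was 0.46. By Spearman's rho this pair did not pass over all arrays (0.54, adjusted permutation p = 0.126). Nor did it within "20 month" arrays (0.69, adjusted p = 0.260) or "20- month" arrays (0.62, adjusted p = 0.203). Within the 8 "20 month" arrays their r was 0.91 (exact permutation test, adjusted p = 0.0372), and 0.81 without the 2 arrays farthest from the Hmgcs1 median. Within the 11 "20- month" arrays r was 0.89 (permutation p, adjusted, 0.0159), but 0.27 without the 2 farthest arrays, so there the relation rests on 3xTgAD/Polb+/- replicates 1 and 2. On those arrays Hmgcs1 and Dhcr7 ran opposite ways (r = -0.83, adjusted permutation p = 0.0159, and -0.41 without the same arrays), whereas on the "20 month" arrays r was 0.65 (adjusted exact p = 0.166). The median r over the 15 pairs was 0.29 on all arrays, 0.01 on "20- month" and 0.53 on "20 month" arrays.

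Probes of 1 gene did not all follow each other closely. Insig1 probes ILMN_1245272 and ILMN_2606693 had an r of 0.96 over 19 arrays, and the remaining pairs of Insig1 probes 0.63 and 0.60. The 2 Sqle probes had an r of 0.78 over all arrays, with 0.87 on "20- month" and 0.77 on "20 month" arrays. Over all arrays the 4 pairs passed after adjustment over 4 (permutation p of 0.0066 at most). On the "20 month" arrays 2 of 4 passed, and probe ILMN_2895388 had an r of 0.25 and 0.15 with the other Insig1 probes, so that the median over the 4 pairs, 0.51, was below the 0.53 of pairs of different genes.

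**Figure D5:**
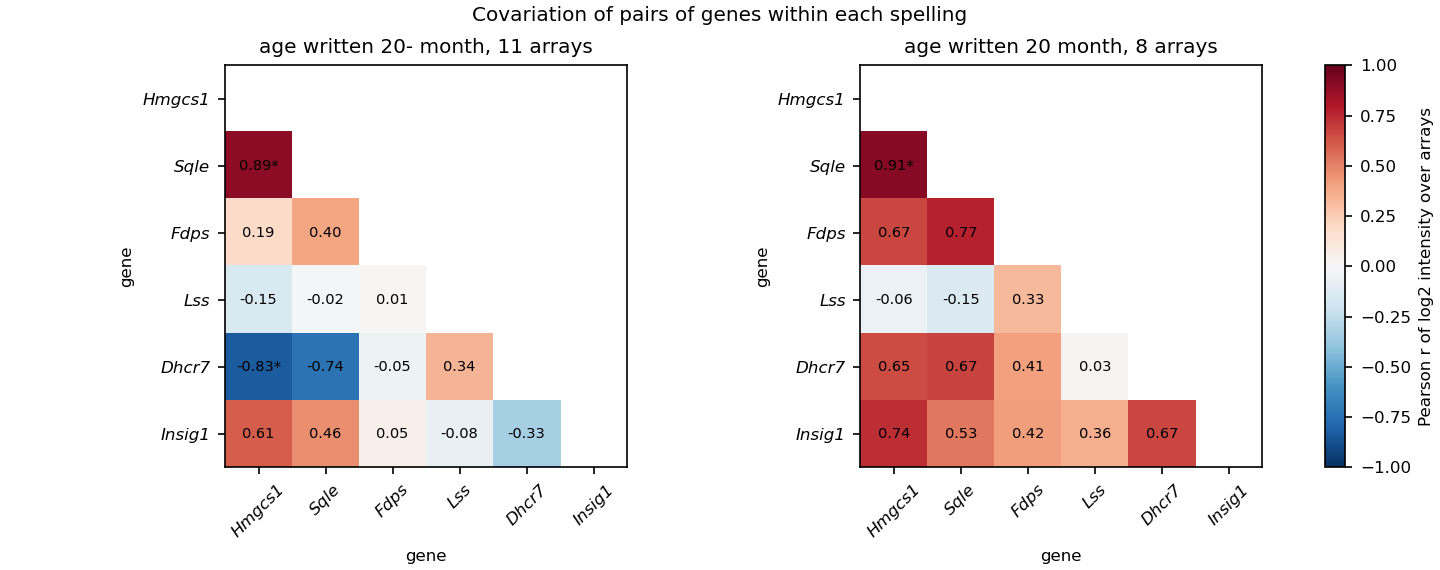
Pearson's r of log2 intensity between pairs of the 6 genes, over the 11 arrays whose age is written 20- month (left) and the 8 written 20 month (right); a star marks an adjusted permutation p under 0.05. Hmgcs1 and Sqle have an r of 0.89 and 0.91, and Hmgcs1 and Dhcr7 one of -0.83 and 0.65.

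Among 14078 probes of other named genes, those most like the mean of the 6 genes (each standardised over arrays) were led by Nsdhl, another enzyme of sterol synthesis. Its probes had an r of 0.89 and 0.88 over 19 arrays, and 0.85 and 0.84 with the means of genotype and spelling removed. Tmem25 (0.89), Vamp1, a synaptic vesicle protein gene (0.87), and Rasl11b (0.86) followed, at 0.86, 0.79 and 0.81 with those means removed. The median r over the 14078 probes was -0.01. The arrays share depth, tissue and normalization, and the list is a description.

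Other genes of sterol biology gave 0 calls in every comparison by limma at an adjusted p under 0.05. Of 15 other enzymes of sterol synthesis, 10 were tested. For 3xTgAD/Polb+/- against wild type 6 of 10 were above 0 (median 0.14). The smallest p-values were those of Lbr, a sterol reductase of the nuclear membrane (0.44 ± 0.14, adjusted p = 0.249), and Pmvk, phosphomevalonate kinase (-0.27, adjusted p = 0.469). Against 3xTgAD, Lbr was at 0.35 and Mvd, the mevalonate decarboxylase gene, at -0.38 (adjusted p = 0.500 and 0.529). Against Polb+/- 8 of 10 were above 0 (median 0.24), with Hsd17b7 at 0.39 (adjusted p = 0.235) and Lbr at 0.33. For 3xTgAD against wild type 7 of 10 were above 0 (median 0.09), with Nsdhl at 0.31 and Cyp51, lanosterol demethylase, at 0.28 (adjusted p = 0.888 and 0.906). For Polb+/- against wild type 1 of 10 was above 0 (median -0.10), with Hsd17b7 at -0.26 and Pmvk at -0.19 (adjusted p = 1 for both).

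Of 11 genes of sterol sensing and SREBP processing, 9 were tested. Srebf2, which encodes SREBP2, was at 0.38 ± 0.13 for 3xTgAD against wild type (adjusted p = 0.675) and at -0.23 for 3xTgAD/Polb+/- against 3xTgAD. Erlin2, of the complex that degrades HMG-CoA reductase, was at 0.20 and 0.22 for 3xTgAD and 3xTgAD/Polb+/- against wild type, and Scap, the escort of SREBP, at 0.30 for 3xTgAD/Polb+/- against wild type (adjusted p = 0.320). Insig2, of the same gene family as Insig1, was at 0.46 for 3xTgAD/Polb+/- against Polb+/- (adjusted p = 0.228), where Erlin1 was at -0.21. For Polb+/- against wild type Insig2 was at -0.30. The medians of this list against wild type were 0.09 in 3xTgAD/Polb+/-, 0.10 in 3xTgAD and 0.09 in Polb+/-.

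Of 12 genes of uptake and intracellular transport, 7 were tested. Stard3, a late endosomal sterol carrier gene, was at 0.39 for 3xTgAD/Polb+/- against wild type and 0.35 against 3xTgAD (adjusted p = 0.360 and 0.572), and Lrp1, a lipoprotein receptor gene, at 0.26 and 0.24. The medians were 0.14 and 0.16 in these comparisons. Lrp1 was at 0.31 and Npc2, a lysosomal sterol carrier, at 0.13 against Polb+/-. For 3xTgAD against wild type, Lipa (lysosomal acid lipase) was at -0.22 and Vldlr at -0.12, and for Polb+/- against wild type Stard3 was at 0.27 and Stard4 at -0.09.

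Genes of export, esterification and turnover (8 of 12 tested) had 3 of 8 above 0 and a median of -0.30 for 3xTgAD/Polb+/- against wild type. Pltp, the phospholipid transfer protein gene, was at -0.87 ± 0.22 against wild type and -0.73 against 3xTgAD (adjusted p = 0.154 and 0.415). Nr1h3, the liver X receptor alpha gene, was at -0.48 against wild type and -0.76 against Polb+/- (adjusted p = 0.284 and 0.108), and Cyp46a1, the neuronal cholesterol hydroxylase, at -0.48 against 3xTgAD (adjusted p = 0.474). Of 12 other SREBP targets and lipogenic genes, 10 were tested, with Fads2, a fatty acid desaturase, at 0.34 for 3xTgAD against wild type (adjusted p = 0.794) and Me1, malic enzyme, at 0.67 for Polb+/- against wild type (adjusted p = 1). Ch25h, cholesterol 25-hydroxylase, belongs to the list of export, esterification and turnover. It was at 0.71 in 3xTgAD/Polb+/-, -0.42 in 3xTgAD and 0.79 in Polb+/- against wild type (adjusted p = 0.501, 0.936 and 1 by limma). Against 3xTgAD it was at 1.13 in 3xTgAD/Polb+/- (adjusted p = 0.491). Scd2, a desaturase, was at 0.26 in 3xTgAD and Elovl6, an elongase, at -0.23 in Polb+/- against wild type. These comparisons share control arrays, so their values are set side by side and not compared.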

How the data were processed

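RNA of prefrontal cortex was measured on 19 Illumina bead arrays. The deposited intensity of each probe has 1 value per array, and a deposited detection p-value stands beside it, per the file headers. GenomeStudio 1.9.0 is named in the submitters' processing notes; genome build and further steps are not given in the sources used here. The authors' second table holds a score per probe and array, equal to the z score of log10 intensity within the array. The deposited intensities were background-corrected and quantile-normalized with neqc (offset 16) in the R package limma, version 3.58.1 under R 4.3.3, and given as log2 intensity. Probes with a detection p-value under 0.05 on at least 4 arrays were kept (14942 of 25697). Symbols came from the platform table, where 23978 probes had 1 symbol. The number of arrays limits the precision.

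All 19 arrays entered 1 limma fit (lmFit, eBayes), with genotype as the only factor and 6 contrasts; degrees of freedom were 15 residual plus 4.64 prior. P-values were two-sided and adjusted by Benjamini-Hochberg over all 14942 probes (threshold 0.05). Values after ± are standard errors for differences and standard deviations for means. Change between the spellings came from a limma fit with 1 mean per genotype and spelling. Correlations used permutation tests (numpy 2.4.6). The pipeline was tested on simulated data. Replicate numbers did not pair the arrays: same-numbered arrays of different genotypes correlated at -0.34 to 0.44 (25 pairs, mean -0.05).

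The members and lists were chosen with earlier results of these data known. All members and all their probes are named, the probe of highest mean standing for the gene. From each further list up to 2 genes of smallest p per comparison are named, and the 5 probes most like the member mean. Ch25h, named by this rule in 3xTgAD and Polb+/- against wild type, is also given for 3xTgAD/Polb+/- against wild type and 3xTgAD. Marker lists of 7 cell types were checked. Astrocyte (8 of 9 genes), microglia (8 of 9) and endothelial (5 of 6) markers overlapped between all genotypes. Alternatives covered normalization, filter, probe choice, spelling, replicate block, covariates and left-out arrays.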

Additional observations from a re-analysis of the deposited data

Results flagged for a closer look

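For 3 results the effect of genotype differed between the arrays whose age is written "20 month" and those written "20- month", by a limma test of the difference itself, adjusted over 14942 probes. The log2 difference of Sqle probe ILMN_2600348 between 3xTgAD/Polb+/- and wild type changed by -1.62 (adjusted p = 0.0200). Between 3xTgAD/Polb+/- and 3xTgAD it changed by -1.44 (adjusted p = 0.0281), and that of Hmgcs1 changed by -0.73 (adjusted p = 0.0476). With median scaling the Hmgcs1 change was -0.29 (adjusted p = 0.338) and was not called. Nor was it called with no detection filter (adjusted p = 0.0553) or the oligodendrocyte covariate (-0.63, adjusted p = 0.212). It was called with the authors' z scores (adjusted p = 0.0146) and an offset of 50 (adjusted p = 0.0305). The call also held with 1 probe per gene (adjusted p = 0.0445) and probes detected on every array (adjusted p = 0.0335). The 2 "20- month" arrays of 3xTgAD/Polb+/- were above both "20 month" arrays for both probes. No array stood apart from its group by Dixon's test in the 36 groups of 4 to 6 arrays tested for the 9 probes. That test looks for 1 array apart from the rest, so it cannot call a group split into 2 high and 2 low arrays.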

How the results depend on the processing

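At an adjusted p under 0.05 by limma, 0 of 9 member probes, of 6 genes, were called in the comparisons of genotypes. For the change between spellings, 1 and 2 of 9 were called against wild type and 3xTgAD, beside 0.348% and 2.82% of all probes. Counts out of 9 below are counts of these probes. A count of all probes is given below only where it changed from the main fit by more than a set factor. The alternatives below changed a count of calls or turned a sign, and the cause was not tested. Differences are on the log2 scale, z scores rescaled to it. The oligodendrocyte covariate and all fits by spelling were chosen after seeing the data. With quantile normalization without background correction, 3xTgAD/Polb+/- against wild type gave calls for 2 of all probes and 3xTgAD against wild type gave calls for 1 of all probes. Under quantile normalization without background correction, 3xTgAD/Polb+/- against Polb+/- gave calls for 4 of all probes and the change between spellings in 3xTgAD/Polb+/- against wild type gave calls for 129 of all probes. Given quantile normalization without background correction, the change between spellings in 3xTgAD/Polb+/- against 3xTgAD gave calls for 4 of 9 members. With an offset of 50, 3xTgAD/Polb+/- against wild type gave calls for 2 of all probes and 3xTgAD against wild type gave calls for 1 of all probes. Under an offset of 50, 3xTgAD/Polb+/- against Polb+/- gave calls for 4 of all probes and the change between spellings in 3xTgAD/Polb+/- against wild type gave calls for 140 of all probes. Given an offset of 50, the change between spellings in 3xTgAD/Polb+/- against 3xTgAD gave calls for 4 of 9 members. With median scaling, 3xTgAD/Polb+/- against wild type gave calls for 0 of all probes, with Hmgcs1 at -0.047 and Fdps at -0.15. Under median scaling, 3xTgAD against wild type gave a member median of -0.12, Hmgcs1 at -0.10, Sqle probe ILMN_2737163 at -0.16 and Fdps at -0.19. Given median scaling, Polb+/- against wild type gave calls for 1 of all probes, with Hmgcs1 at -0.0050. For median scaling, 3xTgAD/Polb+/- against 3xTgAD gave Hmgcs1 at 0.055, Sqle probe ILMN_2600348 at 0.015 and Fdps at 0.041. By median scaling, 3xTgAD/Polb+/- against Polb+/- gave calls for 5 of all probes, with Hmgcs1 at -0.042 and Fdps at -0.031. With median scaling, the change between spellings in 3xTgAD/Polb+/- against wild type gave calls for 2026 of all probes, with Fdps at 0.044 and Dhcr7 at 0.27. Under median scaling, the change between spellings in 3xTgAD/Polb+/- against 3xTgAD gave calls for 1 of 9 members and 3341 of all probes, with Fdps at 0.54 and Insig1 probe ILMN_2895388 at 0.13. With the authors' z scores, 3xTgAD against wild type gave calls for 2 of all probes, Polb+/- against wild type gave Hmgcs1 at -0.022 and 3xTgAD/Polb+/- against Polb+/- gave calls for 4 of all probes. Under the authors' z scores, the change between spellings in 3xTgAD/Polb+/- against wild type gave calls for 3 of 9 members and 624 of all probes, with Dhcr7 at 0.18. Given the authors' z scores, the change between spellings in 3xTgAD/Polb+/- against 3xTgAD gave calls for 898 of all probes. With no detection filter, 3xTgAD/Polb+/- against wild type gave calls for 3 of all probes and 3xTgAD/Polb+/- against Polb+/- gave calls for 0 of all probes. Under no detection filter, the change between spellings in 3xTgAD/Polb+/- against 3xTgAD gave calls for 1 of 9 members and 109 of all probes. With probes detected on all 19 arrays, 3xTgAD/Polb+/- against wild type gave calls for 2 of all probes and 3xTgAD against wild type gave calls for 1 of all probes. Under probes detected on all 19 arrays, 3xTgAD/Polb+/- against Polb+/- gave calls for 6 of all probes and the change between spellings in 3xTgAD/Polb+/- against wild type gave calls for 103 of all probes. Given probes detected on all 19 arrays, the change between spellings in 3xTgAD/Polb+/- against 3xTgAD gave calls for 4 of 9 members. With 1 probe per gene, 3xTgAD/Polb+/- against wild type gave calls for 2 of all probes and 3xTgAD against wild type gave calls for 1 of all probes. Under 1 probe per gene, 3xTgAD/Polb+/- against Polb+/- gave calls for 10 of all probes. Given 1 probe per gene, the change between spellings in 3xTgAD/Polb+/- against wild type gave calls for 0 of 6 members and 33 of all probes. For 1 probe per gene, the change between spellings in 3xTgAD/Polb+/- against 3xTgAD gave calls for 1 of 6 members. With the spelling as a block, 3xTgAD/Polb+/- against wild type gave calls for 49 of all probes, 3xTgAD against wild type gave calls for 10 of all probes and Polb+/- against wild type gave Hmgcs1 at -0.022. Under the spelling as a block, 3xTgAD/Polb+/- against Polb+/- gave calls for 33 of all probes and the interaction gave calls for 1 of all probes. With the "20- month" arrays alone, 3xTgAD/Polb+/- against wild type gave calls for 4 of 9 members and 1983 of all probes, with a member median of 0.37. Under the "20- month" arrays alone, 3xTgAD against wild type gave calls for 65 of all probes, with Dhcr7 at -0.041. Given the "20- month" arrays alone, Polb+/- against wild type gave a member median of 0.035, Sqle probe ILMN_2600348 at 0.27, Sqle probe ILMN_2737163 at 0.013, Fdps at 0.068, Insig1 probe ILMN_1245272 at 0.057 and Insig1 probe ILMN_2895388 at 0.085. For the "20- month" arrays alone, 3xTgAD/Polb+/- against 3xTgAD gave calls for 1 of 9 members and 751 of all probes, with Hmgcs1 at 0.36, Sqle probe ILMN_2600348 at 0.64, Fdps at 0.026 and Insig1 probe ILMN_2606693 at 0.098. By the "20- month" arrays alone, 3xTgAD/Polb+/- against Polb+/- gave calls for 5 of 9 members and 1583 of all probes, with Lss at -0.11 and the interaction gave calls for 148 of all probes. With the "20 month" arrays alone, 3xTgAD/Polb+/- against wild type gave calls for 7 of all probes, with a member median of -0.26, Hmgcs1 at -0.25, Sqle probe ILMN_2600348 at -0.57, Sqle probe ILMN_2737163 at -0.23, Fdps at -0.27, Insig1 probe ILMN_1245272 at -0.54, Insig1 probe ILMN_2606693 at -0.52 and Insig1 probe ILMN_2895388 at -0.080. Under the "20 month" arrays alone, 3xTgAD against wild type gave calls for 7 of all probes, with Fdps at -0.15 and Insig1 probe ILMN_2895388 at -0.097. Given the "20 month" arrays alone, Polb+/- against wild type gave calls for 16 of all probes, with a member median of -0.44 and Hmgcs1 at -0.20. For the "20 month" arrays alone, 3xTgAD/Polb+/- against 3xTgAD gave calls for 4 of all probes, with a member median of -0.32 and Sqle probe ILMN_2737163 at -0.27. By the "20 month" arrays alone, 3xTgAD/Polb+/- against Polb+/- gave calls for 13 of all probes, with Hmgcs1 at -0.045, Dhcr7 at 0.14, Insig1 probe ILMN_1245272 at -0.0047 and Insig1 probe ILMN_2606693 at -0.012. With the "20 month" arrays alone, the interaction gave calls for 1 of all probes. With the replicate block, 3xTgAD/Polb+/- against wild type gave calls for 0 of all probes, with Fdps at -0.032, 3xTgAD against wild type gave Lss at 0.028 and 3xTgAD/Polb+/- against 3xTgAD gave Hmgcs1 at 0.0055. Under the replicate block, 3xTgAD/Polb+/- against Polb+/- gave calls for 0 of all probes. With 3xTgAD replicates 2 and 5 averaged, 3xTgAD/Polb+/- against wild type gave calls for 2 of all probes and 3xTgAD/Polb+/- against Polb+/- gave calls for 0 of all probes. With 3xTgAD replicates 4 and 6 left out, 3xTgAD against wild type gave calls for 17 of all probes, with Lss at 0.12 and 3xTgAD/Polb+/- against 3xTgAD gave calls for 1 of all probes. Under 3xTgAD replicates 4 and 6 left out, 3xTgAD/Polb+/- against Polb+/- gave calls for 30 of all probes and the interaction gave calls for 1 of all probes. Given 3xTgAD replicates 4 and 6 left out, the change between spellings in 3xTgAD/Polb+/- against 3xTgAD gave calls for 0 of 9 members and 6 of all probes. With the striatal marker mean as covariate, 3xTgAD/Polb+/- against wild type gave Fdps at -0.021 and Insig1 probe ILMN_1245272 at -0.024 and 3xTgAD against wild type gave calls for 3 of all probes. Under the striatal marker mean as covariate, Polb+/- against wild type gave Hmgcs1 at -0.042, Lss at 0.068, Insig1 probe ILMN_1245272 at 0.072 and Insig1 probe ILMN_2895388 at 0.047 and 3xTgAD/Polb+/- against 3xTgAD gave Hmgcs1 at 0.0018. Given the striatal marker mean as covariate, 3xTgAD/Polb+/- against Polb+/- gave calls for 0 of all probes, with a member median of -0.054, Fdps at -0.013, Lss at -0.41 and Insig1 probe ILMN_1245272 at -0.096. For the striatal marker mean as covariate, the interaction gave a member median of -0.16 and the change between spellings in 3xTgAD/Polb+/- against wild type gave Lss at -0.012. By the striatal marker mean as covariate, the change between spellings in 3xTgAD/Polb+/- against 3xTgAD gave calls for 1 of 9 members. With the oligodendrocyte marker mean as covariate, 3xTgAD against wild type gave Lss at 0.061, Polb+/- against wild type gave Hmgcs1 at -0.031 and 3xTgAD/Polb+/- against 3xTgAD gave Hmgcs1 at 0.15 and Sqle probe ILMN_2600348 at 0.16. Under the oligodendrocyte marker mean as covariate, 3xTgAD/Polb+/- against Polb+/- gave calls for 21 of all probes, with Lss at -0.045. Given the oligodendrocyte marker mean as covariate, the change between spellings in 3xTgAD/Polb+/- against wild type gave calls for 0 of 9 members and 11 of all probes, with Lss at -0.68 and Dhcr7 at 0.0094. For the oligodendrocyte marker mean as covariate, the change between spellings in 3xTgAD/Polb+/- against 3xTgAD gave calls for 0 of 9 members and 14 of all probes, with Lss at -0.59.

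With each array left out in turn, the lowest and highest values follow. 0 to 319 calls among all probes, Hmgcs1 at -0.019 to 0.32, Sqle probe ILMN_2600348 at -0.022 to 0.50 and Insig1 probe ILMN_1245272 at -0.11 to 0.29 came from 3xTgAD/Polb+/- against wild type. Insig1 probe ILMN_2606693 at -0.072 to 0.26, Fdps at -0.069 to 0.13 came from 3xTgAD/Polb+/- against wild type. 0 to 3 calls among all probes, Sqle probe ILMN_2737163 at -0.017 to 0.33, Hmgcs1 at -0.17 to 0.17 and Sqle probe ILMN_2600348 at -0.38 to 0.14 came from 3xTgAD/Polb+/- against 3xTgAD. 0 to 260 calls among all probes, Hmgcs1 at -0.027 to 0.31, 0 to 1 calls among 9 members and Lss at -0.098 to 0.21 came from 3xTgAD/Polb+/- against Polb+/-. 0 to 17 calls among all probes, Lss at -0.20 to 0.028 and Fdps at -0.022 to 0.18 came from 3xTgAD against wild type. 0 to 3 calls among all probes, Insig1 probe ILMN_2895388 at -0.14 to 0.055, Hmgcs1 at -0.052 to 0.073 and Sqle probe ILMN_2600348 at -0.17 to 0.11 came from Polb+/- against wild type. 0 to 1 calls among all probes came from the interaction. 0 to 4 calls among 9 members, 11 to 829 calls among all probes, Lss at -0.35 to 0.38 and Dhcr7 at -0.28 to 0.23 came from the change between spellings in 3xTgAD/Polb+/- against wild type. 0 to 4 calls among 9 members, 2 to 1483 calls among all probes and Lss at -0.28 to 0.45 came from the change between spellings in 3xTgAD/Polb+/- against 3xTgAD. For 3xTgAD/Polb+/- against wild type and Polb+/-, the highest counts of all probes came without 3xTgAD/Polb+/- replicate 3.

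Replicate numbers did not pair the arrays (25 same-numbered pairs, mean correlation -0.05), so the replicate block is given only here; no member was called with it. Averaging 3xTgAD replicates 2 and 5 was not run by spelling, since they differ in it. With 1 probe per gene 6 member probes are tested, and Sqle probe ILMN_2600348 is not among them. The number of arrays, with 2 of 3xTgAD/Polb+/- per spelling, limits the precision.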
